A study of Arabidopsis thaliana with 4 samples.

Results

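The chloroplast genome of Arabidopsis thaliana was represented in the deposited gene counts by 133 genes, of 32833 in all, each with an identifier that begins with ATCG. The members are therefore every plastid-encoded gene of the files, whatever its level, and their counts were summed per library over barcodes that held more than 1000 and fewer than 25000 RNA counts. The study grew Col-0 plants on plates with sorbitol, which imposes osmotic stress, or on the same medium without it, and took root tips of 5 mm. Nuclei were profiled with an assay that reads RNA and open chromatin of the same nucleus, in 2 stress and 2 control libraries. Only the RNA was used here, since all the called peaks lay on the 5 nuclear chromosomes.

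Plastids carry a small genome of their own, copied and transcribed inside the organelle, with genes for parts of the photosynthetic complexes, for the plastid ribosome and RNA polymerase, and for a few other proteins and RNAs. Most plastid proteins are instead encoded in the nucleus and imported. Root cells hold plastids that are mostly not green, such as the starch-filled amyloplasts of the columella, and in dividing cells small undifferentiated proplastids. Plastid RNA is not made in the nucleus, so in a preparation of nuclei it stands for RNA or plastids that came along with them. Fewer plastids per cell, less RNA per plastid and a different carry-over cannot be told apart in these counts.

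The files pair the plastid identifiers with no gene names, and the reference annotation gave a name to 6 of the 133. Among them are ATCG00670 (clpP, the proteolytic subunit of the plastid Clp protease), ATCG00530 (cemA, an envelope membrane protein), ATCG00660 (rpl20) and ATCG01310 (rpl2), which encode proteins of the plastid ribosome, and ATCG00430, annotated as photosystem II reaction center protein G. All other members are given by identifier only. On the RefSeq plastid sequence of TAIR10.1, 154478 bases long, clpP lies at 69910 to 71882 on the minus strand and cemA at 60741 to 61430 on the plus strand. The gene rpl20 (68512 to 68865) is on the minus strand. The gene rpl2 has 2 copies, at 84337 to 85843 on the minus strand and at 152806 to 154312 on the plus strand, so its reads cannot be assigned to one copy.

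The labels give polyA RNA as the molecule sequenced, and a primer of T bases can also bind a run of A inside a transcript. The stretches below are shown because they are where such a run is longest in clpP, cemA and rpl20, the genes described by name below with the most counts. Each is 25 bases of the sense strand, 5′ to 3′, that holds the whole longest run of A, and capitals mark runs of at least 5 A.
clpP (70400 to 70424): cacaccgtAAAAAAAAAAAAAgaca
cemA (60741 to 60765): atggcAAAAAAgaaagcattcattc
rpl20 (68512 to 68536): aatttcgaatgacatAAAAAAAtaa
The run in clpP is 13 bases long, and 5.75% of the 87 plastid protein-coding genes of the annotation hold one as long. A run of 7, as in rpl20, was found in 43.7% of these genes, and a run of 6, as in cemA, in 58.6%. The search covered each gene from its start to its end, with any introns included, so a run may be absent from the spliced RNA. Whether these runs bear on the counts was not tested.

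Of the 24474 deposited barcodes, 23532 passed the RNA limits, which were 7687 and 6499 in the stress libraries and 3213 and 6133 in the control libraries. RNA counts per library were between 17567594 and 37717096, with medians of 3248 to 3863 per nucleus. Between 29 and 83 barcode sequences were shared by any pair of libraries, at most 1.34% of the smaller one. The control libraries differed from each other far more than the stress libraries did: for the makeup of their plastid counts, chi-square divided by its degrees of freedom was 2.09 between the stress libraries and 43.5 between the control libraries. In control 1, 53.9% of the nuclei failed the limits of the study on peak counts, against 14.2 to 22.3% in the other libraries. Results are therefore also given without single libraries.

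Plastid transcripts were a small part of the RNA. They made up 292562 counts in all, and a nucleus held a median of 9 and 9 plastid counts in the stress libraries, against 8 and 5 in the control libraries. Nuclei without any plastid count were 1.87 and 1.51% of the stress libraries and 4.92 and 6.77% of the control libraries, and no nucleus exceeded 140 plastid counts. The most plastid-rich 1% of nuclei held 5.99 to 7.64% of the plastid counts, so the signal was spread over nearly all nuclei.

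The plastid share of RNA counts was 0.282% in stress 1, with an exact 95% interval of 0.281 to 0.284%, and 0.289% in stress 2, with an interval of 0.287 to 0.291%. It was 0.243% (0.240 to 0.245%) in control 1 and 0.173% (0.172 to 0.175%) in control 2. Intervals cover counting error only. Both stress libraries thus lay above both control libraries, and the mean of the stress libraries was 1.37 times that of the control libraries. The gap between the control libraries was wider than that between control 1 and either stress library, and the smallest p that an exact permutation test can give with 2 against 2 libraries is 0.33, so no p is given for this sum.

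The order of the libraries differed between shallow and deep nuclei. In nuclei with 1000 to 2000 RNA counts, the plastid share was 0.229 and 0.248% in the stress libraries, against 0.332% in control 1 and 0.180% in control 2. In nuclei with 8000 to 25000 counts it was 0.293 and 0.303% in the stress libraries, against 0.214 and 0.165% in the control libraries. The share was thus higher in the deeper nuclei of both stress libraries and lower in the deeper nuclei of control 1. With each nucleus thinned to 1000 counts, the shares were 0.2693 and 0.2738% in the stress libraries, and 0.2691 and 0.179% in the control libraries, so that control 1 came next to stress 1.

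**Figure D1:**
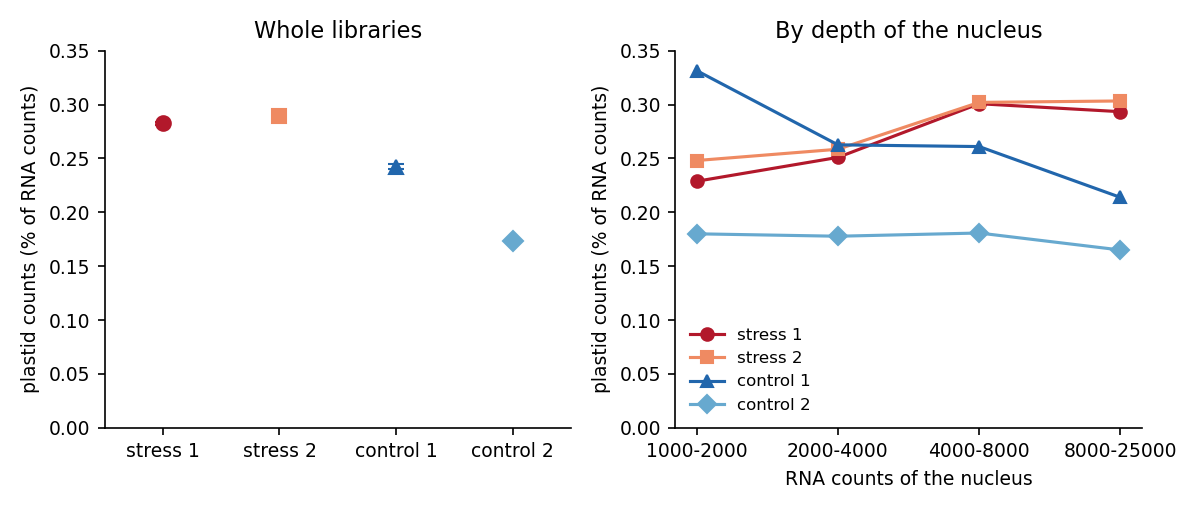
Plastid counts as a percentage of all RNA counts in each library (left, with exact 95% intervals) and in nuclei grouped by their RNA counts (right, lines join the groups of one library). The stress libraries lie at 0.282 and 0.289% and the control libraries at 0.243 and 0.173%, and control 1 is above the stress libraries in nuclei with 1000 to 2000 counts.

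The other organelle and the low barcodes did not share this order. Mitochondrial genes took 1.66 and 1.69% of the RNA counts in the stress libraries, against 2.46 and 1.42% in the control libraries, so their groups overlapped. Per mitochondrial count there were 0.170 and 0.171 plastid counts in the stress libraries, against 0.0985 and 0.122 in the control libraries. Barcodes with at most 1000 RNA counts, too few to count as nuclei here, had a plastid share of 0.210 and 0.319% in the stress libraries and of 0.351 and 0.249% in the control libraries. Nuclei that failed the peak limits had 0.291 and 0.312% in the stress libraries and 0.219 and 0.168% in the control libraries. Those that passed had 0.281 and 0.285% in the stress libraries and 0.270 and 0.176% in the control libraries. The part of free RNA in the plastid counts was not tested.

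A few genes made up most of the plastid counts. Of the 133 members, 88 were counted in all 4 libraries, 12 in 1 to 3 of them and 33 in none. Only 40 had more than 1000 counts in all, and 16 had 1 to 20. The 10 genes with the highest mean level held 65.6 and 65.2% of the plastid counts in the stress libraries, against 62.9 and 67.8% in the control libraries. It took 29 and 29 genes to reach 90% in the stress libraries, and 31 and 28 in the control libraries, so the counts were about as concentrated with and without stress.

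Levels are given as CPM, the counts of a gene scaled to the RNA counts of its library. They compare a gene between libraries, and as the lengths of the captured molecules are not known, they do not rank the RNA of different genes per length. ATCG01130 took the most counts in every library, with 367 and 368 CPM in the stress libraries, against 309 and 234 CPM in the control libraries. ATCG00500 came next in every library, with 307 and 334 CPM under stress and 252 and 230 CPM in control. Both were higher in each stress library than in each control library, but neither passed the test described below, with adjusted p of 0.386 and 0.274 in edgeR.

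ATCG00470 differed most between the groups among the leading genes. It had 294 and 293 CPM in the stress libraries, against 125 and 147 CPM in the control libraries. Its part of the plastid counts was 10.4 and 10.12% under stress, against 5.16 and 8.48% in control. The groups did not overlap by either measure.

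ATCG00790 had 223 and 224 CPM in the stress libraries, against 158 and 138 CPM in the control libraries. ATCG00740 had 137 and 142 CPM under stress and 93.9 and 85.6 CPM in control, ATCG00380 had 76.4 and 82.7 against 52.4 and 53.6 CPM, and ATCG00820 had 74.7 and 71.3 against 48.9 and 38.7 CPM. All 4 were higher in both stress libraries than in both control libraries, an order shared by 50.4% of all tested genes.

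The remaining leading genes overlapped between the groups because control 1 was high. ATCG00030 had 155 and 142 CPM in the stress libraries, against 214 CPM in control 1 and 87.1 CPM in control 2. The protease gene clpP had 139 and 145 CPM under stress, against 141 and 99.995 CPM in control. ATCG00170 had 80.9 and 83.0 CPM under stress, against 89.8 and 44.0 CPM in control. In each of these the values of the stress libraries lay between those of the control libraries or next to control 1.

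Other named genes were low. The envelope protein gene cemA had 20.8 and 20.6 CPM in the stress libraries, against 17.8 and 9.58 CPM in the control libraries. The ribosomal protein gene rpl20 had 14.3 and 16.4 CPM under stress, against 26.2 and 10.5 CPM in control. ATCG00430 had under 1 CPM in every library, and rpl2 had 6 counts in all. Of these, cemA was higher in both stress libraries than in both control libraries, and rpl20 and ATCG00430 overlapped.

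**Figure D2:**
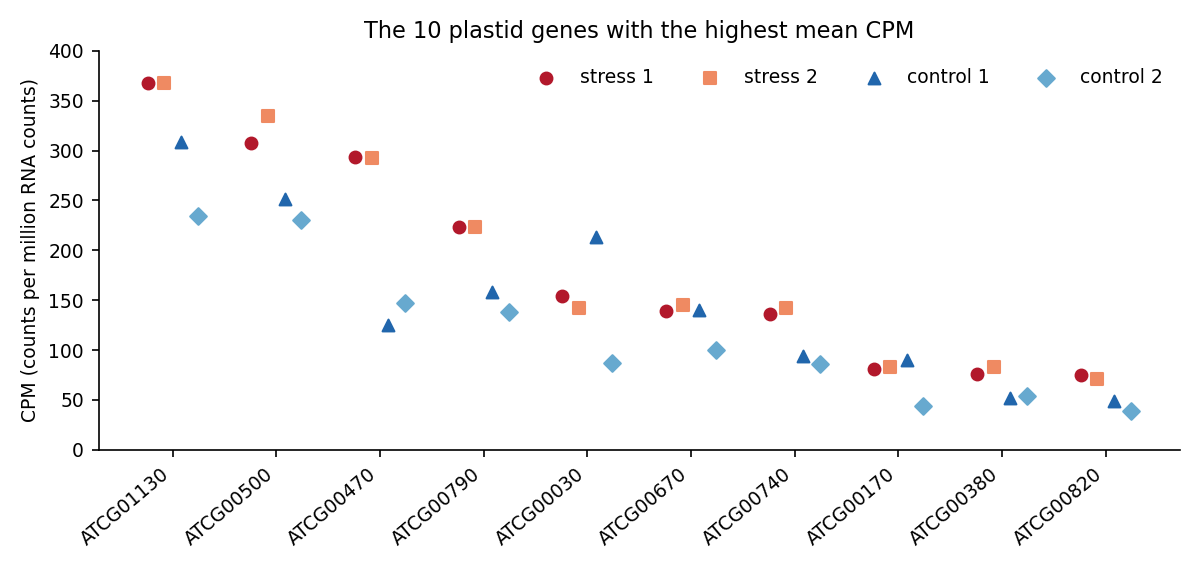
Levels (CPM) of the 10 plastid genes with the highest mean level, 1 point per library. ATCG00470 shows the widest gap, at 294 and 293 CPM in the stress libraries against 125 and 147 CPM in the control libraries, while ATCG00030 and ATCG00170 are highest in control 1.

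The test across all genes asked which plastid genes differed between the stress and control libraries. Counts were summed per library and fitted with the quasi-likelihood test of edgeR, with p adjusted by Benjamini-Hochberg over all 20587 genes that passed its filter on low counts. Of the plastid genes 80 passed that filter and 53 did not, of which 33 were never counted. With an adjusted p under 0.05, 5 plastid genes rose and 0 fell, which is 6.25% of those tested. Of all genes tested, 9.88% were called in either direction, 6.8% higher and 3.07% lower under stress, so plastid genes were not called more often than genes at large. At an unadjusted p under 0.05 in edgeR there were 18 of the 80 plastid genes, against 7163 of all 20587 genes. DESeq2 called 6 higher and 0 lower of 100 tested, where it called 12.9% of all genes. The median log2 change was 0.21 over the tested plastid genes and -0.0027 over all genes tested.

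The 5 genes that rose were ATCG00020, ATCG00470, ATCG00630, ATCG00730 and ATCG00650. ATCG00020 had 36.4 and 37.7 CPM in the stress libraries, against 15.9 and 16.4 CPM in the control libraries, a log2 change of 1.00 ± 0.10 (SE, 2 against 2 libraries) with an adjusted p of 0.0227 in edgeR. ATCG00470, whose levels are given above, changed by 0.91 ± 0.12 with an adjusted p of 0.0328. ATCG00630 had 12.2 and 11.4 CPM under stress, against 4.61 and 5.54 CPM in control, and changed by 1.01 ± 0.15. ATCG00730 changed by 0.65 ± 0.10, with 47.8 and 47.4 CPM under stress and 25.9 and 26.8 CPM in control, and ATCG00650 by 0.68 ± 0.10, with 35.5 and 36.9 against 18.7 and 20.5 CPM. In all 5 the replicates of each group were close, and these are genes in which the control libraries had similar levels. With the peak limits of the study, ATCG00020 and ATCG00630 passed, and ATCG00470, ATCG00650 and ATCG00730 had adjusted p of 0.053, 0.057 and 0.061 in edgeR. After thinning none passed.

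The plain order of the libraries gave the same picture. Of the 80 tested plastid genes, 40 were higher in both stress libraries than in both control libraries, a share close to the 50.4% of all tested genes. In 39 the groups overlapped. ATCG00550 alone was lower in both stress libraries, with 0.636 and 0.885 CPM against 1.31 and 0.934 CPM in control, while 18.7% of all tested genes had that order. Of the 80, 77 were higher in both stress libraries than in control 2, but only 40 were higher in both than in control 1 and 33 were lower in both than in control 1. Control 1 exceeded control 2 in 67 of the 80.

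The direction of many plastid genes therefore depended on the control library. Without control 1, edgeR called 57 plastid genes higher and 0 lower, where 58.3% of all genes were called, 29.0% higher and 29.4% lower. Without control 2 it called 19 higher and 27 lower, where 60.7% of all genes were called, 30.8% higher and 29.9% lower. With only 1 control library the spread is taken from the stress libraries, which were close to each other. Without either stress library edgeR called no gene of any kind. The 5 genes named above kept a positive change in each of these fits, between 0.63 and 1.13.

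The change was measured relative to all RNA. Scaled to the sum of plastid counts, 0 of 79 plastid genes were called in edgeR, but only 3 of all 20516 genes tested (0.0146%) were called there. At an unadjusted p under 0.05 there were 5 plastid genes, against 4951 of all genes. This scaling centres the plastid genes near 0 by its construction and moved the median of all genes to -0.31. ATCG00470 had a change of 0.59 ± 0.30 there, with an adjusted p of 0.273.

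The mitochondrial genome served as the other organelle. Of 48 mitochondrial genes tested, edgeR called 0, and DESeq2 called 4 lower of 97. In edgeR 1 of them had an unadjusted p under 0.05, against 7163 of all 20587 genes. The median log2 change of the mitochondrial genes was -0.93, but it depended on the control library, at 0.06 without control 1 and -1.59 without control 2. Nuclear genes of photosynthesis, whose proteins work beside those encoded in the plastid, were read in the same fit. Of 56 such genes listed, 50 were tested, and 39 rose and 0 fell, with a median log2 change of 1.98, against 0.21 for the plastid genes. Of all genes tested, 6.8% were called higher. The lists were chosen with earlier results of these data known, so this contrast is not independent of that choice. Summed over the 56 genes they had 1806 and 1819 CPM in the stress libraries, against 472 and 566 CPM in the control libraries.

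Antenna genes, which encode the chlorophyll-binding proteins that collect light, rose in 13 of 16 tested, photosystem I genes in 9 of 12, photosystem II genes in 9 of 11, and genes of electron carriers and the plastid ATP synthase in 7 of 10. LHB1B2 (AT2G34420), an antenna gene, had 179 and 179 CPM in the stress libraries, against 23.5 and 24.3 CPM in the control libraries, a log2 change of 2.71 ± 0.11. PSBR (AT1G79040), a photosystem II subunit, had 348 and 338 CPM under stress, against 61.3 and 90.7 CPM in control. The ferredoxin gene FED A (AT1G60950) had 163 and 162 CPM under stress, against 64.8 and 72.6 CPM in control. As said above, no gene of any kind was called without either stress library.

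Nuclear genes that act on plastid transcription, such as sigma factors and proteins bound to the plastid RNA polymerase, had a median change of 0.38. edgeR called 0 of 20 and DESeq2 called 0, with 11 at an unadjusted p under 0.05 in edgeR, against 7163 of all 20587 genes. Of the regulators of greening, 3 of 6 rose. Among them GUN5 (AT5G13630), a subunit of the enzyme that inserts magnesium on the way to chlorophyll, had 37.4 and 39.1 CPM under stress, against 10.99 and 11.9 CPM in control. Of 5 amyloplast starch genes edgeR and DESeq2 called 0, with 1 at an unadjusted p under 0.05 in edgeR, and their median change was 0.28.

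**Figure D3:**
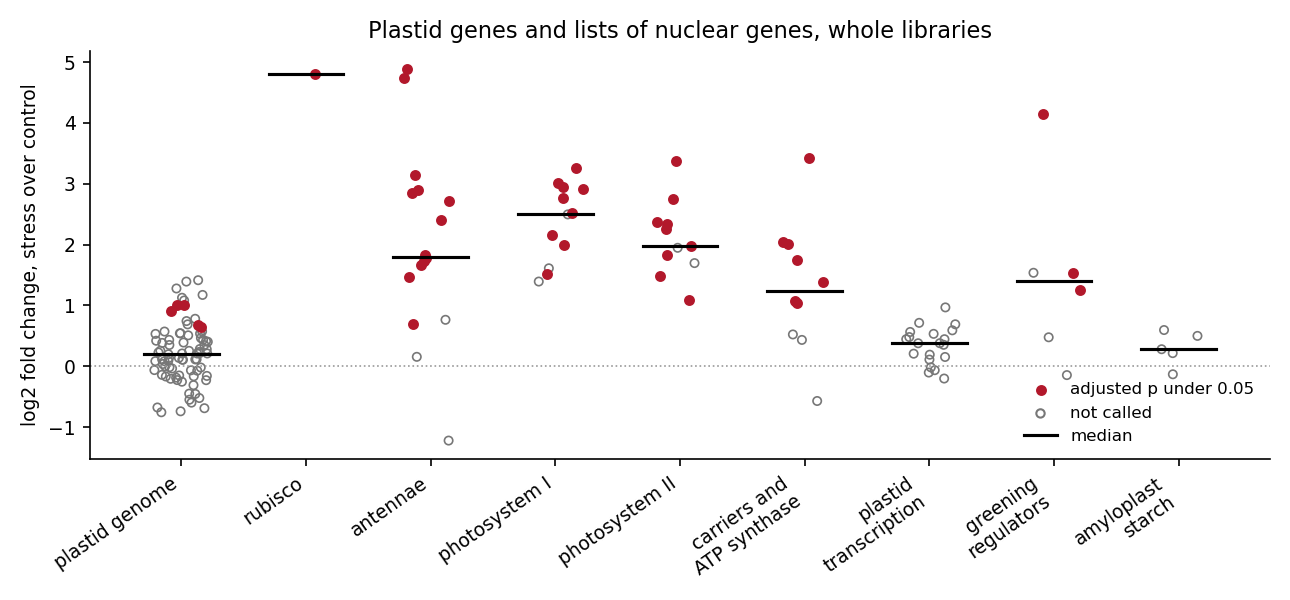
Log2 fold change, stress over control, of each tested gene of the plastid genome and of lists of nuclear genes in whole libraries, with the median of each list as a bar and genes at an adjusted p under 0.05 in edgeR filled. The plastid genes centre on 0.21, and the medians of the 4 nuclear photosynthesis lists with more than 1 tested gene are 1.23 to 2.51, with single genes below the plastid median.

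Root cell types were compared by clustering the nuclei without any plastid or mitochondrial gene, so that the members played no part in the clusters. Of 17 clusters, 10 took a name from marker genes. Names end in -like, and 6 classes met the minimum of 20 nuclei in each library: dividing-like, pericycle-like, cortex-like, lateral root cap-like, atrichoblast-like (epidermis without hairs) and trichoblast-like (root hair cells). All 9 markers of dividing cells, mainly cyclins and other genes of the cell cycle, marked cluster 10, and 14 of 16 trichoblast markers marked cluster 11. The endodermis-like and phloem-like clusters held 19 and 9 nuclei of control 1 and were not compared. Some clusters belonged nearly to 1 library. Cluster 12, cortex-like, held 739 of its 748 nuclei from control 2 and was led by the jasmonate synthesis genes AT3G25770 and AT3G25760. Cluster 13, atrichoblast-like, held 332 of 335 from control 1 and was led by heat shock genes. Most cortex-like nuclei of the stress libraries and control 1 were instead in cluster 3.

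Dividing-like nuclei had a higher plastid share than the other nuclei of their library in all 4 libraries. Their share was 0.377 and 0.369% in the stress libraries, against 0.33 and 0.221% in the control libraries. The other nuclei had 0.276 and 0.284% in the stress libraries and 0.235 and 0.170% in the control libraries. The ratio of the dividing-like to the other nuclei was 1.30 to 1.40.

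Epidermal nuclei lay on the other side. Trichoblast-like nuclei had 0.218 and 0.233% in the stress libraries, against 0.147 and 0.109% in the control libraries, which was 0.594 to 0.798 times the share of the other nuclei. Atrichoblast-like nuclei had 0.241 and 0.254% under stress, against 0.178 and 0.108% in control, a ratio of 0.591 to 0.872. Both classes were below the rest in all 4 libraries. With finer clusters (resolution 1.0), trichoblast-like nuclei stayed below in all 4, but atrichoblast-like nuclei were above the rest in both stress libraries, with ratios of 1.01 and 1.04, and below it in both control libraries, with 0.824 and 0.593. Without cluster 13, an alternative chosen after seeing the data, the atrichoblast-like ratio was 0.495 to 0.874.

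The depth of the nuclei did not follow this split. Median RNA counts were 6551 to 6966.5 in the dividing-like nuclei, 4914 to 6730 in the trichoblast-like and 5829 to 8158.5 in the atrichoblast-like, all above the library medians. Thinned to 1000 counts per nucleus, the dividing-like share was 0.407 and 0.359% in the stress libraries and 0.389 and 0.252% in the control libraries, against 0.264 and 0.271%, and 0.263 and 0.177%, in the other nuclei of those libraries. Thinned trichoblast-like shares were 0.224 and 0.230% under stress and 0.174 and 0.15% in control, still under those of the other nuclei. The mitochondrial share of dividing-like nuclei was 1.47 and 1.45% in the stress libraries, against 1.75 and 1.02% in the control libraries, and was below that of the whole library in each.

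The other classes lay above the rest in some libraries and below it in others. Pericycle-like nuclei had 0.304 and 0.317% in the stress libraries, against 0.240 and 0.194% in the control libraries, and were above the rest in 3 of 4 libraries. Cortex-like nuclei had 0.302 and 0.304% under stress, against 0.194 and 0.175% in control, also above the rest in 3 of 4, with a ratio of 0.795 in control 1. Lateral root cap-like nuclei, of which there were 97 and 60 in the stress libraries and 28 and 48 in the control libraries, had 0.284 and 0.301% under stress, against 0.219 and 0.152% in control. In all 6 classes both stress libraries were above both control libraries, by 1.36 times in dividing-like and 1.76 times in trichoblast-like nuclei. In the endodermis-like and phloem-like clusters, which were not compared for their few nuclei, the groups overlapped. At resolution 1.0 they also overlapped in the endodermis-like cluster, at 1.11 times, and in an unnamed cluster with a stress mean of 0.910 times that of control. These ratios come from the same 4 libraries and are not independent of each other.

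**Figure D4:**
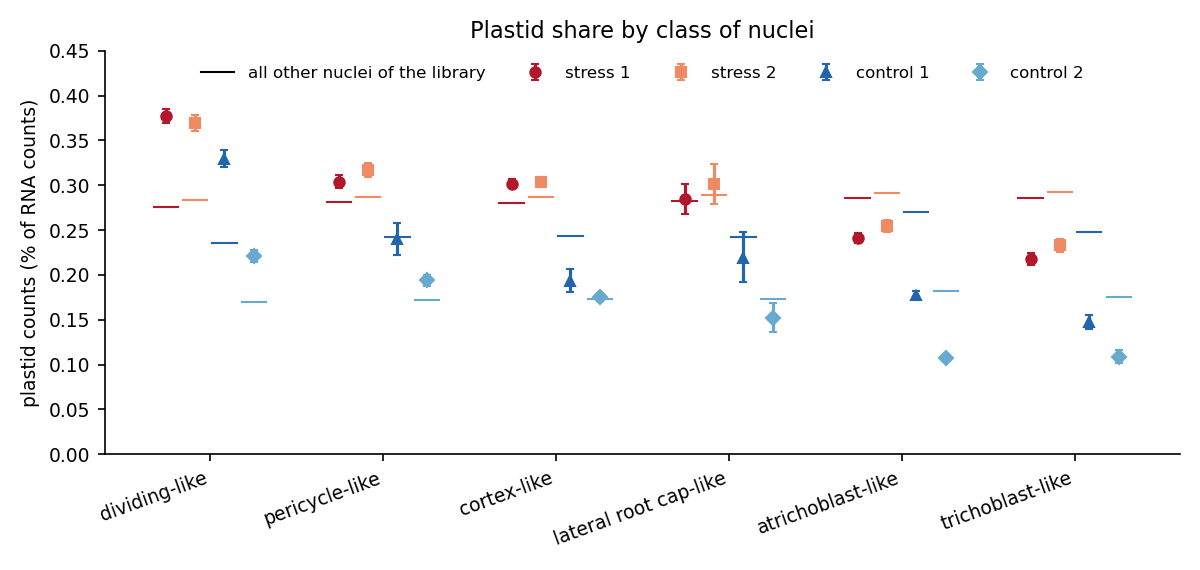
Plastid counts as a percentage of RNA counts in the 6 classes of nuclei, 1 point per library with its exact 95% interval, and a short line for all other nuclei of the same library. Dividing-like nuclei lie above the line in all 4 libraries, and atrichoblast-like and trichoblast-like nuclei below it, though at the finer resolution (not drawn) atrichoblast-like nuclei of the stress libraries are above it.

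Clusters that took no name spanned a wide range of plastid shares. Of the 12 clusters that met the same minimum, 4 were above the rest in all 4 libraries and 3 below. Those above were cluster 10, the dividing-like one, and the unnamed clusters 1, 5 and 9. Cluster 1, in which 3 of the 14 markers of the quiescent centre and initials were found, had 0.348 and 0.355% in the stress libraries, against 0.315 and 0.208% in the control libraries. Cluster 9 had 0.337 and 0.372% under stress, against 0.299 and 0.284% in control. It held 5 of the same markers (35.7% of that list) and 3 lateral root cap markers (33.3% of theirs), so its markers did not separate the 2. Cluster 0, with 2082 and 1825 nuclei from the stress libraries and 201 and 91 from the control libraries, had 0.199 and 0.205% under stress, against 0.149 and 0.136% in control. In 10 of these 12 clusters the stress libraries were above the control libraries, and in clusters 5 and 8 they overlapped. Cluster 6, with 1243 of 1470 nuclei from control 2, had 0.086 and 0.106% in its 5 and 8 stress nuclei, against 0.094 and 0.110% in control.

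The makeup of the plastid counts also differed between classes. In dividing-like nuclei, 7 of the 10 leading genes took a larger part of the plastid counts than in the other nuclei of all 4 libraries, and 2, ATCG00500 and ATCG00470, took a smaller part in all 4. ATCG01130 made up 15.5 and 14.7% of the plastid counts of dividing-like nuclei in the stress libraries and 14.7 and 15.5% in the control libraries. In the other nuclei it made up 12.8 and 12.6% in the stress libraries and 12.5 and 13.3% in the control libraries. The exact 95% intervals of the 2 sets of nuclei were apart in all 4 libraries for this gene, for ATCG00740 and ATCG00170, which were also higher, and for ATCG00500 and ATCG00470.

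ATCG00500 showed the reverse. It made up 8.16 and 9.35% of the plastid counts of dividing-like nuclei under stress and 6.29 and 8.71% in control. In trichoblast-like nuclei it made up 13.5 and 14.4% under stress and 15.7 and 15.8% in control, and in atrichoblast-like nuclei 13.7 and 15.0% under stress and 12.2 and 17.5% in control. It was above the rest in all 4 libraries in both epidermal classes, with intervals apart in all 4 for the atrichoblast-like nuclei.

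Set against each other, ATCG00500 had 0.526 and 0.635 counts per count of ATCG01130 in dividing-like nuclei of the stress libraries, against 0.427 and 0.562 in those of the control libraries. In trichoblast-like nuclei there were 1.08 and 1.20 under stress, against 1.40 and 1.27 in control. The ratio was lowest in the dividing-like nuclei in every library, and the order of the other classes was not the same in each.

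Cortex-like nuclei differed in other genes. ATCG01130, ATCG00790 and ATCG00820 took a smaller part of their plastid counts than of the rest in all 4 libraries, with intervals apart in all 4. ATCG00790 made up 5.98 and 6.38% of the cortex-like plastid counts in the stress libraries, against 3.54 and 5.88% in the control libraries. The nuclei of control 2 in this class are mainly those of cluster 12. ATCG00470 and ATCG00380 took a larger part than in the rest in all 4 libraries.

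**Figure D5:**
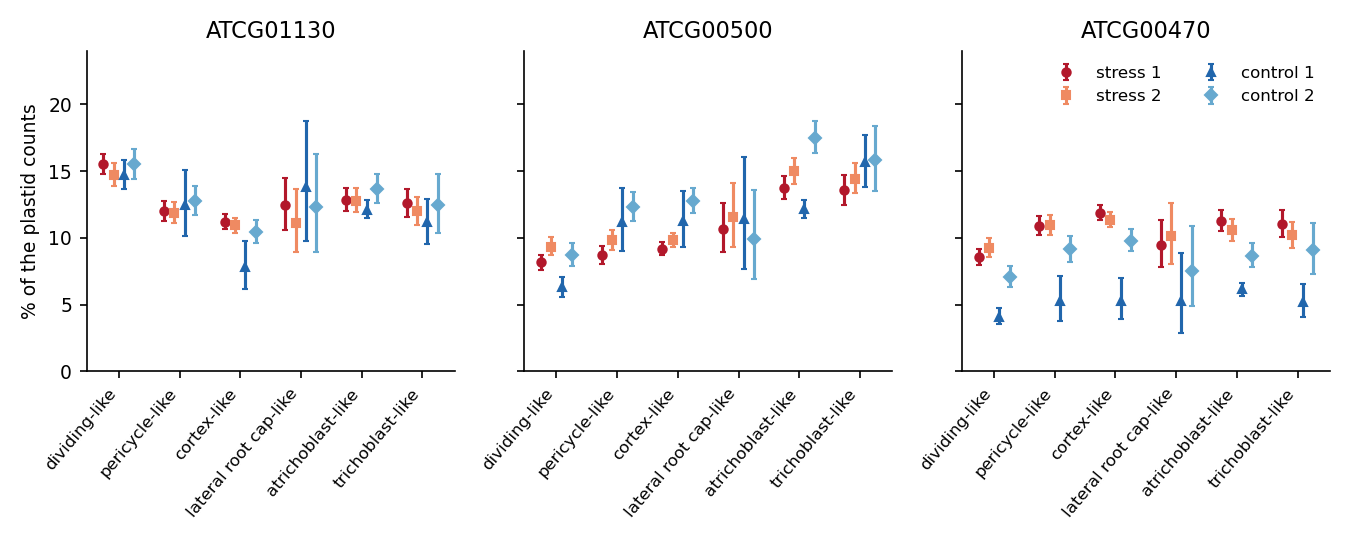
Part of the plastid counts taken by 3 leading genes in the 6 classes, in percent, 1 point per library with its exact 95% interval. ATCG00500 is lowest in dividing-like nuclei in each library, where it takes 6.29 to 9.35%, and ATCG00470 is lower in the control libraries than in the stress libraries in each class.

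Within classes, stress and control libraries were compared gene by gene with the same test, each class fitted alone. There were 20 calls over the 6 classes, of 13 different plastid genes, and in all of them the gene rose. These were 7.33% of the plastid tests, against 8.96% for all genes. This direction depended on control 2 for part of the plastid genes. Without control 1, the median log2 change of the tested plastid genes was 0.55 to 1.11 in the 6 classes. Without control 2 it was -0.29 in dividing-like nuclei and 0.08 to 0.53 in the other classes. ATCG00470 rose in 5 of the 6 classes, by 0.94 to 1.28 on the log2 scale, and ATCG00820 rose in 3. Against all genes called in either direction, the share of plastid genes called was higher in 3 classes and lower in 3.

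In pericycle-like nuclei, 7 of 53 plastid genes rose, where 12.8% of all genes were called and 3.77% were higher under stress. The 3 with the largest change were ATCG00180, at 1.52 ± 0.34, ATCG00630, at 1.38 ± 0.39, and ATCG01040, at 1.08 ± 0.30. Their counts in control 1 were 2, 1 and 2. ATCG00170 rose there by 1.04 ± 0.21, with 84.9 and 82.7 CPM in the stress libraries, against 39.8 and 34.8 CPM in the control libraries, while in whole libraries its groups overlapped. At resolution 1.0, cluster 17 of the pericycle-like class held 5 and 2 stress nuclei and 55 and 611 control nuclei. Cluster 5 held 625 and 538 stress nuclei and 53 and 91 control nuclei. Stress and control 2 were thus mainly different clusters at that resolution.

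In cortex-like nuclei, 4 of 59 rose, where 11.9% of all genes were called and 5.0% were higher under stress. All the stress nuclei of this class were in cluster 3. Control 2 had 45 nuclei there and 739 in cluster 12, which held none from stress. Stress and control 2 were thus mainly different clusters. ATCG00780 changed by 2.05 ± 0.51, from 38 and 34 counts in the stress libraries and 2 and 4 in the control libraries. The envelope gene cemA changed by 1.40 ± 0.26, with 24.6 and 27.0 CPM under stress, against 10.7 and 7.67 CPM in control. ATCG00180 changed by 1.37 ± 0.24, with 28.2 and 27.2 CPM under stress, against 6.42 and 9.33 CPM in control. In control 1, cemA and ATCG00180 rested on 5 and 3 counts. ATCG00470 had 358 and 345 CPM under stress, against 103 and 172 CPM in control, and an adjusted p of 0.0525 in edgeR.

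In trichoblast-like nuclei, 4 of 38 rose, where 7.05% of all genes were called and 2.89% were higher under stress. ATCG00650 changed by 1.32 ± 0.33, ATCG00470 by 1.21 ± 0.20 and ATCG00820 by 0.99 ± 0.25. ATCG00470 had 241 and 238 CPM under stress, against 76.8 and 98.8 CPM in control.

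In dividing-like nuclei, 3 of 54 rose, where 8.15% of all genes were called and 4.82% were higher under stress. ATCG00470 changed by 0.99 ± 0.12, with 323 and 342 CPM under stress, against 135 and 156 CPM in control. ATCG00730 changed by 0.87 ± 0.19 and ATCG00500 by 0.51 ± 0.13. The leading gene of the class, ATCG01130, was not among the calls.

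In atrichoblast-like nuclei, 1 of 52 rose, where 5.93% of all genes were called and 4.02% were higher. In lateral root cap-like nuclei it was 1 of 17, where 3.82% were called and 1.33% were higher. The gene was ATCG00470 in both. It had 272 and 269 CPM in atrichoblast-like nuclei under stress, against 109 and 93.4 CPM in control, a change of 1.14 ± 0.17. Of the control 1 nuclei of this class, 332 were in cluster 13, which held 0 and 1 from the stress libraries, and 355 in cluster 7. The fit was not repeated without cluster 13. At resolution 1.0, edgeR called 0 of 41 plastid genes in atrichoblast-like nuclei, with 10 at an unadjusted p under 0.05, against 2070 of all 11969 genes. In lateral root cap-like nuclei ATCG00470 had 269 and 306 CPM under stress, against 115 and 114 CPM in control. These rest on 109 and 73 counts under stress and 13 and 25 in control. DESeq2 made 4 calls in place of the 20, and without either stress library 1 call was made over all classes each time.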

How the data were processed

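Counts of RNA molecules per gene and barcode were deposited by the authors, who ran Cell Ranger ARC 2.0.2 on each library against TAIR10. Seurat 4.3.0 is also named in the processing notes of the submitters. All peak counts lay on nuclear chromosomes and only set an alternative limit on nuclei (over 1000 and under 100000). Filters of the study that require fragments (nucleosome signal, signal at transcription starts) could not be applied. The deposited raw counts were summed per library over barcodes with RNA counts over 1000 and under 25000. Sums were tested with edgeR 4.0.16 in R 4.3.3 (TMM scaling, filterByExpr, threshold 0.05), with DESeq2 1.42.0 as an alternative. Each SE was computed as the absolute log2 change over the root of the F statistic. The script was tested on simulated data. The labels number the replicates and the study calls them biological, and p-values measure the spread between these libraries.

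Nuclei were clustered with scanpy 1.11.5 and leidenalg 0.10.2 without organelle genes (genes in at least 10 nuclei, 10000 counts per nucleus, 2000 variable genes, 30 components, 20 neighbours, resolution 0.6). Doublets were kept. A name needed at least 3 markers and 30% of a list, each in at least 10% of the nuclei at over 2 times the level elsewhere, and a lead of 1.5 over the next list. These thresholds were chosen after seeing the clusters. An earlier one of 20% would have called cluster 8, led by suberin genes, cortex-like, and cluster 1 a cluster of initials. Intervals are Clopper-Pearson (scipy 1.17.1).

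Named plastid genes were the 10 with the highest mean level, the called genes and, within classes, the 3 called genes with the largest change. The members and lists were chosen with earlier results of these data known. From the lists, called genes with a mean of at least 20 CPM could be named. A planned grouping of plastid genes by complex was not made, since only 6 could be named. 1 of these is not reported here. Sequence came from RefSeq (TAIR10.1), in which the plastid gene positions are given.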

Additional observations from a re-analysis of the deposited data

Results flagged for a closer look

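In 3 sets of nuclei the plastid share lay on one side of the other nuclei in both stress libraries and on the opposite side in both control libraries. The ratio of lateral root cap-like nuclei to the other nuclei averaged 1.02 in the stress libraries and 0.888 in the control libraries. All nuclei without a class name averaged 0.953 under stress and 1.25 in control. Cluster 8, which is one of the unnamed clusters and is led by suberin genes such as AT5G58860 (CYP86A1), averaged 0.930 under stress and 1.20 in control. At resolution 1.0 the nuclei without a class name had a ratio of 0.917 to 1.09 and were above the rest in 1 library. None of these differences between stress and control was tested. The intervals of the lateral root cap-like share held that of the other nuclei in all 4 libraries except control 2.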

How the results depend on the processing

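The plastid share was higher under stress with each of the alternatives run, and the stress minus control difference of 0.0779 percentage points was between 0.0432 without control 2 and 0.113 without control 1. In whole libraries, where 5 plastid genes were called, library sizes without organelle genes gave 12 calls (15.0%, against 15.8% of all genes), with the median of all genes moved to 0.19. The peak limits gave 2 calls (2.60%, against 4.76% of all genes), thinning to 1000 counts gave 0 (with 8 at an unadjusted p under 0.05 in edgeR, and 2.85% of all genes called), scaling to the plastid sum gave 0, and leaving out 1 library gave 0 to 57. The replicate numbers did not pair the libraries, as the differences between replicates 1 and 2 in the 2 groups correlated with r = 0.04 across 20587 genes, which are not independent replicates. With the replicate number as a block, 2 plastid genes were called (2.5%, against 6.67% of all genes). Within classes, the 20 calls (7.33%, against 8.96% of all genes) became 4 with DESeq2 (0.778 against 2.83%) and 33 with no filter on low counts (6.42 against 8.35%), of which 2 were lower, and 1 to 124 with 1 library left out. Resolution 1.0 gave 14 calls (5.62%, against 7.77% of all genes), with 1 of trichoblast-like nuclei in place of 4 and 0 of atrichoblast-like nuclei. The lateral root cap-like class had no value at resolution 1.0.

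For cortex-like nuclei, the mean log2 ratio to the other nuclei was -0.03. It was 0.0259 at resolution 1.0, 0.0453 without cluster 12 (chosen after seeing the data), and -0.0761 to 0.0702 with 1 library left out, so its direction is not settled. For dividing-like nuclei it was 0.42, and 0.53 after thinning. Scaled to the plastid sum, the changes of ATCG01130, ATCG00500, clpP and ATCG00170 were -0.0291, -0.0780, -0.22 and -0.12. That of clpP was -0.0496 with the peak limits and -0.0905 after thinning. With 1 library left out, clpP ran between -0.22 and 0.32, ATCG00030 between -0.76 and 0.58, and ATCG00170 between -0.36 and 0.71. The causes were not tested. With 2 libraries per group and unlike control libraries, small changes of single plastid genes could not be resolved.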

Other observations

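Some plastid genes at low levels had larger changes than the called genes without passing the threshold, and they were picked out after their values were seen. ATCG00330 had 2.44 and 2.65 CPM in the stress libraries, against 1.08 and 0.634 CPM in the control libraries, a log2 change of 1.41 ± 0.32 with an adjusted p of 0.0641 in edgeR. ATCG00090 had 7.85 and 7.52 CPM under stress, against 2.28 and 3.57 CPM in control, with an adjusted p of 0.056 in edgeR. ATCG00040, the gene with the next highest mean level after the 10 leading ones, had 47.2 and 51.4 CPM under stress, against 89.3 CPM in control 1 and 40.2 CPM in control 2.

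At the finer resolution of 1.0, a suberin endodermis-like cluster with at least 20 nuclei in every library had 1.01 to 1.36 times the plastid share of the other nuclei. An endodermis-like cluster had 0.973 to 1.23 times that share, and its stress and control libraries overlapped.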
